A study of Rattus norvegicus with 10 samples.

Results

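The large and small Maf factors measured here were Maf, Maff, Mafg, and Mafk, which are 4 of the 14217 genes named on the arrays. They were chosen by name, as every probe set to which the annotation of the array gives 1 of these symbols alone, and this gave 7 probe sets: 3 for Maf (1368388_at, 1385243_at, and 1387165_at), 1 for Maff (1380229_at), 2 for Mafg (1368874_a_at and 1372024_at), and 1 for Mafk (1372211_at). All 7 were kept, with no filter on low values. RNA came from lens explants of rat pups 3 days old. Such an explant is a piece of the capsule with the epithelial sheet still attached. All explants spent a night in 5 ng/mL FGF2, and these are the 0 hr reference. The others were then given 100 ng/mL FGF2 for 2, 4, 12, or 24 hr, with 2 arrays for each of the 5 time points and 10 arrays in all. No explants kept at the low dose for the same hours were put on the arrays, so effects of the dose and of time in culture cannot be told apart. Each RNA came from several explants of whole tissue, in which fewer cells of a type and less RNA per cell cannot be told apart. The labels call the 2 arrays of a time point biological replicates, and 2 arrays limit the precision of every value.

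Maf proteins are basic leucine zipper (bZIP) transcription factors that bind DNA as dimers at Maf recognition elements (MAREs), which extend the AP-1 site or the cyclic AMP response element (CRE) on both sides. The large Maf proteins, of which Maf (c-Maf) is one, carry an activation domain, and Maf is known in the lens for its role in fiber cell elongation and in the activity of crystallin genes. The small Maf proteins Maff, Mafg, and Mafk lack an activation domain, and they act as repressors when paired with each other and as activators when paired with CNC family members such as Nfe2l2 (Nrf2). FGF is the growth factor best known for inducing lens epithelial cells to become fiber cells.

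In GRCr8, the RefSeq assembly, Maf lies on chromosome 19 (chr19:60259200-60622145, minus strand), Maff on chromosome 7 (chr7:112792787-112804139, plus strand), Mafg on chromosome 10 (chr10:106401633-106410159, minus strand), and Mafk on chromosome 12 (chr12:19948473-19970351, minus strand). The positions of the probes in this assembly were not analysed here. RefSeq promoter windows of 300 bases, 250 before and 50 after the start site, were found for all 4 genes. The start site of the window is the outer end of the locus for Maff, and lies 27 bases inside the locus for Mafg, 789 for Maf, and 11159 for Mafk, so the Mafk window is at an internal start site. The windows were searched on both strands for the letters of 9 elements, the MAREs and the CArG box among them. The sequences shown are those of the 2 genes that were up-regulated early, Maff and Mafk, at elements that factors downstream of growth factor signals are known to bind. Each is 30 bases, 5′ to 3′ on the strand of the gene, with the matched letters in capitals.
Maff CRE, chr7:112792725-112792754: cgctggggcggTGACGTCActgcatgactg
Maff Egr element, chr7:112792667-112792696: ccttactcggGCGTGGGCGgggcctcggct
Mafk Egr element, chr12:19959257-19959286: cgtgaccatcGCGGGGGCGggacggtgacg
Mafk Ets element, chr12:19959221-19959250: gacgcgcgatcCCGGAAGcggtgtcagtac

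The CRE letters, TGACGTCA, began at position -51 from the Maff start site and were present in 1.83% of the 33469 RefSeq windows of the same length. The letters of the Egr element, GCGNGGGCG, began at -110 in Maff and at -84 in Mafk, and 4.98% of all windows hold them. The letters of the Ets element, CCGGAAG, began at -47 in Mafk and were present in 8.75% of windows. Directly after it, and sharing its last base, the Mafk window held the core letters of the antioxidant response element, TGACNNNGC, on the other strand, which 12.1% of windows hold. The letters CACGTG of the E-box, present in 6.42% of windows, were found in the windows of Maff (from -213), Mafg (from -16), and Mafk (from -237). None of the 4 windows held the AP-1 letters TGANTCA (7.33% of windows), either full-length MARE (the T-MARE or the C-MARE, each in 0.00598% of windows), or the CArG box (1.64% of windows), and the Maf window held none of the 9 elements. These are matches of letters only, and the arrays did not measure binding.

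The members followed different courses. Maff and Mafk were up-regulated at 2 and 4 hr, while Maf was down-regulated at these times by 1 of its 3 probe sets at 2 hr and by 2 of 3 at 4 hr. Maf was then up-regulated at 12 hr by 2 of 3 probe sets and at 24 hr by all 3. Of the 4 times, Mafg was called only at 24 hr, higher by both probe sets. A probe set was called at an adjusted p under 0.05 in limma, with Benjamini-Hochberg adjustment over all 31042 probe sets tested. At 2 hr, 3 of the 7 probe sets were called, 2 higher and 1 lower, against 17.5% of all probe sets (8.61% higher and 8.88% lower). At 4 hr, 4 of 7 were called, 2 higher and 2 lower, against 23.8% (11.9% in each direction). At 12 hr, 2 of 7 were called, both higher, against 19% in either direction and 8.94% higher, and at 24 hr 6 of 7 were called, all higher, against 20.2% in either direction and 9.29% higher. The median difference over all probe sets lay between -0.02 and 0.03 on the log2 scale at each of the 4 times.

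**Figure D1:**
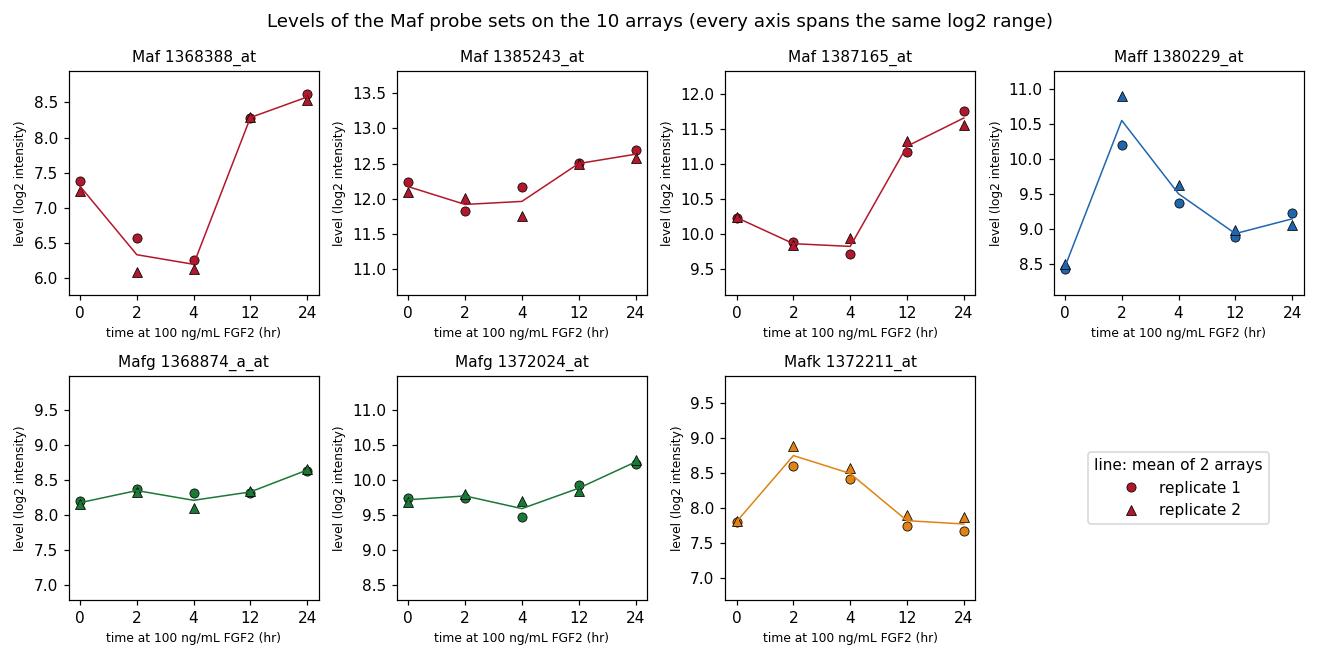
Level of each of the 7 Maf probe sets (vertical axis, log2 of the normalized intensity) on the 10 arrays by time at 100 ng/mL FGF2 in hr (horizontal axis, evenly spaced). Circles and triangles are the 2 replicate arrays and the line joins their means; the Maf probe sets dip at 2 and 4 hr and lie highest at 24 hr, Maff and Mafk peak at 2 hr, and both Mafg probe sets lie highest at 24 hr.

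The arrays themselves differed along the time course. The 5′ to 3′ signal ratio of the Actb control probes, a sign of RNA and cDNA length, averaged -1.17 on the log2 scale on the 0 hr arrays, -1.91 and -1.72 on the 2 and 4 hr arrays, and -1.36 and -1.81 on the 12 and 24 hr arrays. Array names given by the study place the 0 hr arrays, the 2 and 4 hr arrays, and the 12 and 24 hr arrays in separate runs of numbers, so the run and the phase cannot be told apart. Only 4 hr against 2 hr and 24 hr against 12 hr lie within a run. The 5 genes listed for lens epithelium include Cryaa and Cryab. The study cites α-crystallin expression as an early feature of fiber cell differentiation, so the list is not of the epithelium alone. The summed intensity of the 5 lay between 57377 and 66316 on the 10 arrays, most of it from Cryaa and Cryab. Neither was called at any of the 4 times. Of the other 3, Pax6 was lower at 4, 12, and 24 hr (-0.48, -0.34, and -0.41 ± 0.082), Cdh1, the epithelial cadherin, at 12 and 24 hr (-0.34 and -0.70 ± 0.089), and Foxe3 at 24 hr (-1.18 ± 0.18), so that 3 of the 5 were lower at 24 hr, when Maf and Mafg were higher. Their part in those rises was not tested. The 9 macrophage markers together reached 288 to 561, and the 5 pigment cell and 3 photoreceptor markers measured lay at 155 to 171 and 56.1 to 63.1 in sum; none of these 17 was called at any of the 4 times.

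Maff, a small Maf gene known for rapid induction by growth factors and stress, showed the largest rise among the members. Its log2 level was 8.42 and 8.50 on the 0 hr arrays and 10.21 and 10.89 on the 2 hr arrays. The 4 hr arrays stood at 9.37 and 9.63, the 12 hr arrays at 8.88 and 8.99, and the 24 hr arrays at 9.23 and 9.06. Both arrays of every later time point lay above both 0 hr arrays, and the 2 hr arrays were the highest and the farthest apart. Maff was 4.25-fold higher at 2 hr than at 0 hr, a log2 difference of 2.09 ± 0.20 (SE, n = 2 arrays per time point; adjusted p = 3.9e-04), and this was larger than 99.6% of the differences of all probe sets at that time. At 4 hr it was 2.06-fold higher (log2 difference 1.04 ± 0.20, adjusted p = 0.0058). Between 2 and 4 hr it fell by 1.05 on the log2 scale (adjusted p = 0.025), the only 1 of the 7 probe sets called in this comparison, in which 3.73% of all probe sets were called and 1.5% were lower. That call was lost when any of 6 arrays was left out, namely either 0 hr array, either 12 hr array, replicate 2 of 2 hr, or replicate 1 of 4 hr. The difference at 12 hr was 0.47 (95% interval 0.02 to 0.92, adjusted p = 0.14), not called. It was called, at the same size, without either 2 hr array (adjusted p = 0.023), in a fit of the 0 and 12 hr arrays alone (0.0059), with array quality weights (0.017), and at an unadjusted p (0.042) or by the methods' analysis of variance (0.019). At 24 hr Maff was 1.61-fold higher (0.68 ± 0.20, adjusted p = 0.041), but this call was lost without any 1 of the 0, 12, or 24 hr arrays, and the difference was 0.26 (adjusted p = 0.48) with the Actb ratio as a covariate. From lowest to highest, the order of its levels was 0, 12, 24, 4, and 2 hr, and only the neighbours 4 and 2 hr differed by the test.

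Mafk, a small Maf gene whose protein pairs with CNC and Bach factors, rose with Maff early and was not called against 0 hr at 12 or 24 hr. Its log2 level was 7.80 and 7.81 at 0 hr, 8.61 and 8.89 at 2 hr, and 8.42 and 8.57 at 4 hr. At 12 hr it was 7.75 and 7.90, and at 24 hr 7.68 and 7.87. The 2 and 4 hr arrays all lay above every other array, while the 12 and 24 hr arrays straddled the 0 hr arrays. Mafk was 1.92-fold higher at 2 hr (log2 difference 0.94 ± 0.12, SE; adjusted p = 0.0016) and 1.61-fold higher at 4 hr (0.69 ± 0.12, adjusted p = 0.0042). The differences at 12 and 24 hr were 0.01 (95% interval -0.26 to 0.29) and -0.03 (-0.31 to 0.24). From lowest to highest, the order of its levels was 24, 0, 12, 4, and 2 hr. Of the neighbours, 4 hr was higher than 12 hr by 0.67 (adjusted p = 0.0052), and the others were not told apart by the test (-0.26 for 4 hr against 2 hr, adjusted p = 0.34).

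Beside the rises at 2 hr, 4 markers of fibroblasts were also higher in sum, at 408 to 439 against 214 to 299 at 0 hr, while at 4 hr their sum, 200 to 447, overlapped that at 0 hr. None of the 4 was called at 2 or 4 hr (Col1a1 0.56, adjusted p = 0.053, and Dcn 1.06, adjusted p = 0.19, at 2 hr), and their part in the rises of Maff and Mafk was not tested.

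Maf, the large Maf factor, was lower early and higher late. On probe set 1368388_at, the log2 level was 7.37 and 7.24 at 0 hr, 6.57 and 6.08 at 2 hr, and 6.26 and 6.13 at 4 hr. It then stood at 8.28 and 8.29 at 12 hr and at 8.62 and 8.54 at 24 hr. Every early array lay below both 0 hr arrays and every late array above them. This probe set fell by 0.98 ± 0.15 (log2, SE; adjusted p = 0.0031) at 2 hr, which is 1.97-fold lower, and by 1.11 ± 0.15 (adjusted p = 9.7e-04) at 4 hr, which is 2.17-fold lower. It was 1.97-fold higher at 12 hr (0.98 ± 0.15, adjusted p = 0.0022) and 2.42-fold higher at 24 hr (1.27 ± 0.15, adjusted p = 6.5e-04). The 2 hr call, the only one for Maf at that time, was lost by the methods' analysis of variance (unadjusted P = 0.061) and with the Actb ratio as a covariate (-0.65, adjusted p = 0.073). The 5 lens fiber markers measured were also lower in sum at these times, at 10624 to 13171 at 2 hr and 8655 to 9091 at 4 hr against 13650 to 13721 at 0 hr, and their part in the early fall of Maf was not tested.

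On probe set 1387165_at, Maf stood at 10.24 on both 0 hr arrays, at 9.89 and 9.85 at 2 hr, and at 9.71 and 9.94 at 4 hr. It reached 11.18 and 11.34 at 12 hr and 11.75 and 11.57 at 24 hr. The groups were again apart, with the early arrays below and the late arrays above the 0 hr arrays. The early differences were smaller here than on 1368388_at: -0.37 ± 0.11 (SE; adjusted p = 0.0501) at 2 hr, which missed the threshold but passed it without either 4 hr array (adjusted p = 0.033), and -0.41 ± 0.11 (adjusted p = 0.027) at 4 hr. The 4 hr call was lost without either 0 hr array or without replicate 1 of 4 hr, and it was also lost in a fit of the 0 and 4 hr arrays alone (adjusted p = 0.066). The late rises were 2.02-fold at 12 hr (1.02 ± 0.11, adjusted p = 4.9e-04) and 2.68-fold at 24 hr (1.42 ± 0.11, adjusted p = 1.0e-04).

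The third Maf probe set, 1385243_at, changed less. Its log2 level was 12.24 and 12.10 at 0 hr, 11.83 and 12.00 at 2 hr, and 12.16 and 11.76 at 4 hr, so the 4 hr arrays overlapped those at 0 hr. It was 12.50 on both arrays at 12 hr and 12.69 and 12.58 at 24 hr, above both 0 hr arrays. The differences from 0 hr were -0.25, -0.21, and 0.33 ± 0.14 at 2, 4, and 12 hr (adjusted p = 0.25, 0.32, and 0.14), none of them called. Without replicate 1 of 4 hr the 4 hr difference was -0.41 and called (adjusted p = 0.046), and without either 4 hr array the 12 hr difference was called (adjusted p = 0.048). At 24 hr it was 1.38-fold higher (0.46 ± 0.14, adjusted p = 0.044), and this call was lost without any 1 of the 0, 12, or 24 hr arrays.

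The order of the Maf levels was 4, 2, 0, 12, and 24 hr on probe sets 1368388_at and 1387165_at, and 2, 4, 0, 12, and 24 hr on 1385243_at. On the first of these the neighbours 2 and 0 hr and the neighbours 0 and 12 hr differed by the test, on 1387165_at only 0 and 12 hr did, and on 1385243_at no neighbours did. Over the 10 arrays the log2 levels of the 3 Maf probe sets correlated at r = 0.91 to 0.96, as a description of arrays that share time points and scaling. The 3 probe sets thus kept the same direction at each of the 4 times, with sizes that ranged from 0.33 to 1.02 at 12 hr and from 0.46 to 1.42 at 24 hr.

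Mafg, a small Maf gene expressed in many tissues, was higher at 24 hr. On probe set 1368874_a_at its log2 level was 8.19 and 8.15 at 0 hr, 8.36 and 8.33 at 2 hr, and 8.31 and 8.10 at 4 hr. The late arrays read 8.31 and 8.34 (12 hr) and 8.62 and 8.66 (24 hr). On probe set 1372024_at it was 9.74 and 9.69 at 0 hr, 9.74 and 9.80 at 2 hr, and 9.48 and 9.71 at 4 hr, followed by 9.93 and 9.84 (12 hr) and 10.22 and 10.29 (24 hr). On both, the 24 hr arrays lay above all 8 others. The rise at 24 hr was 1.38-fold on 1368874_a_at (0.47 ± 0.093, SE; adjusted p = 0.0082) and 1.45-fold on 1372024_at (0.54 ± 0.099, adjusted p = 0.0058). Both calls were lost without replicate 2 of 0 hr (adjusted p = 0.065 and 0.050), the first also without replicate 2 of 24 hr (0.056), and the second with the Actb ratio as a covariate (0.38, adjusted p = 0.077). At 2, 4, and 12 hr the differences from 0 hr lay between -0.13 and 0.17 and were not called by limma. By the methods' analysis of variance, 1368874_a_at was called higher at 2 and 12 hr (unadjusted P = 0.023 and 0.024). In the order of levels, the neighbours 2 and 24 hr differed on 1368874_a_at (0.29, adjusted p = 0.043), and no neighbours differed on 1372024_at, where 24 hr exceeded 12 hr by 0.37 (adjusted p = 0.075).

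**Figure D2:**
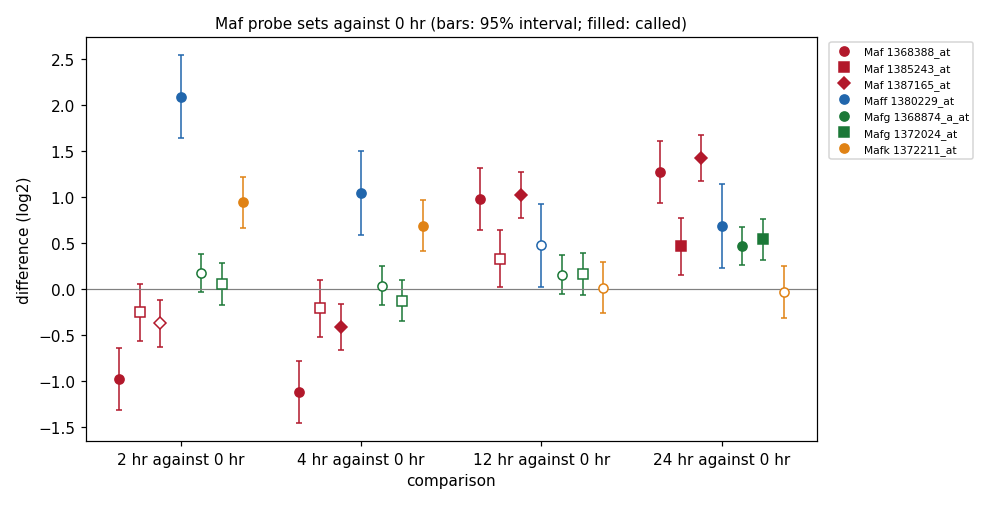
Difference from 0 hr on the log2 scale (vertical axis) for the 7 Maf probe sets at 2, 4, 12, and 24 hr (horizontal axis); bars are 95% intervals from limma, and filled symbols mark an adjusted p under 0.05. Maff at 2 hr, at 2.09, is the highest value and Maf 1368388_at at 4 hr, at -1.11, the lowest.

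Between 12 and 24 hr none of the 7 probe sets was called by limma, while 4.34% of all probe sets were. Mafg 1372024_at was called without either 4 hr array (adjusted p = 0.042). At an unadjusted p under 0.05, 3 were: Maf 1387165_at (0.40, adjusted p = 0.084), Mafg 1368874_a_at (0.31, adjusted p = 0.11), and Mafg 1372024_at (0.37, adjusted p = 0.075). With array quality weights 3 were called after adjustment, and the analysis of variance named in the methods, with unadjusted P, called 3. The late levels of Maff differed by 0.21 (95% interval -0.24 to 0.66) and those of Mafk by -0.05 (-0.33 to 0.23).

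The late phase (12 and 24 hr) was compared with the early phase (2 and 4 hr) as the difference of their means. All 7 probe sets were called, 5 higher and 2 lower late, in a comparison in which 39.2% of all probe sets were called (19.9% higher and 19.3% lower). Maf was 4.51-fold higher late on 1368388_at (log2 difference 2.17 ± 0.10, SE; adjusted p = 4.3e-06), 3.06-fold on 1387165_at (1.61 ± 0.078, adjusted p = 4.6e-06), and 1.55-fold on 1385243_at (0.63 ± 0.097, adjusted p = 0.0010). Mafg was higher late by 0.39 ± 0.070 on 1372024_at (adjusted p = 0.0024) and by 0.21 ± 0.065 on 1368874_a_at (adjusted p = 0.034), and the second of these calls was lost with 9 of the 10 single arrays left out, all but replicate 1 of 4 hr. Maff was 1.98-fold lower late (-0.99 ± 0.14, adjusted p = 6.6e-04) and Mafk 1.77-fold lower (-0.82 ± 0.086, adjusted p = 1.3e-04).

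**Figure D3:**
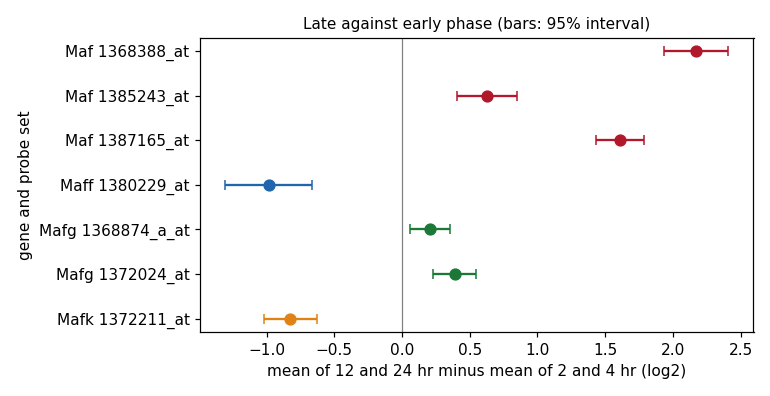
Mean of the 12 and 24 hr arrays minus mean of the 2 and 4 hr arrays on the log2 scale (horizontal axis) for each Maf probe set (vertical axis); bars are 95% intervals from limma. The 3 Maf and 2 Mafg probe sets lie to the right of 0, from 0.21 to 2.17, and Maff (-0.99) and Mafk (-0.82) to the left.

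The genes whose log2 levels over the 10 arrays were most like those of each member were found by Pearson's r. The candidates were 9321 probe sets of other genes, each with a single symbol and called at any of the 4 times. A gene with several such probe sets was taken by the one with the highest r. The arrays share time points, so r describes these arrays and carries no test. Mafk was most like Skil, a repressor of SMAD signaling (r = 0.995), with Fos, an AP-1 subunit, in the fourth place (r = 0.989). Fos differed from 0 hr by 1.74, 1.12, -0.02, and -0.15 on the log2 scale at 2, 4, 12, and 24 hr, beside 0.94, 0.69, 0.01, and -0.03 for Mafk. Maff was most like Dot1l, a histone H3 methyltransferase (r = 0.987), Klf6, a zinc finger transcription factor (0.979), and Runx1, a runt domain transcription factor (0.978). Maf was most like Spry1, a feedback inhibitor of FGF signaling, by probe set 1387165_at (r = 0.989), where Spry1 differed from 0 hr by -0.25, -0.48, 1.38, and 1.80 at the 4 times. By its other probe sets the leading genes were Zfp532 (1368388_at, r = 0.991) and Slc24a1, a sodium, calcium, and potassium exchanger (1385243_at, r = 0.973). For Mafg they were Trappc6b, a subunit of a vesicle tethering complex (1368874_a_at, r = 0.973), and Cd99, a cell surface glycoprotein (1372024_at, r = 0.980). Among the members, Maff and Mafk correlated at r = 0.88, and Mafk correlated with the 3 Maf probe sets at r = -0.88 to -0.76.

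The other genes through which Maf proteins act are given as lists, each gene by its brightest probe set. Mafa, another large Maf gene, had a mean log2 level of 3.88 and was not called at any of the 4 times. Of the CNC and Bach genes, whose proteins pair with small Maf proteins, 4 of 6 were measured. By its brightest probe set, none was called by limma in any of the 7 comparisons. The dimmest of the 3 Nfe2l1 probe sets was, however, called lower late against early in limma (-0.33, adjusted p = 0.0041). The Nfe2l1 probe set of middle brightness was not called in that comparison (0.14, adjusted p = 0.28). Nfe2l2, the main activator of antioxidant genes, differed from 0 hr by -0.13, 0.03, 0.28, and 0.10 ± 0.17 at 2, 4, 12, and 24 hr, Nfe2l1 by 0.01, 0.02, -0.16, and -0.14, and Bach1, a repressor, by 0.09, 0.06, 0.25, and -0.02. Nfe2l3 and Bach2 were not named here.

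AP-1 factors, bZIP relatives of the Maf proteins, rose in the same hours as Maff and Mafk. Of 9 genes, 7 were higher and 1 lower at 2 hr and 4 were higher and 1 lower at 4 hr, where 8.61% and 11.9% of all probe sets were higher. The median of the list was 1.74 at 2 hr and 0.85 at 4 hr on the log2 scale. Atf3 (3.01 ± 0.61), Fosl1 (2.42 ± 0.25), and Junb (2.08 ± 0.12) rose most at 2 hr, and Batf fell by 0.55. At 12 and at 24 hr 2 of the 9, Jun and Junb, were still higher, and Batf was lower. That is 33.3% of the list at each time, beside 19 and 20.2% of all probe sets. Of all probe sets, 8.94 and 9.29% were higher at these times. Jun has 3 probe sets, and its counts as higher at 2, 4, 12, and 24 hr rest on the brightest alone. Neither of the dimmer Jun probe sets was called at any of these times. Their differences from 0 hr were -0.17 and -0.25 at 2 hr, and 0.59 and 0.63 at 24 hr.

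The antioxidant genes that dimers of CNC and small Maf proteins are known to reach did not move one way. Of 18 measured, 2 were higher and 4 lower at 2 hr, 2 higher and 5 lower at 4 hr, 2 higher and 4 lower at 12 hr, and 4 lower with none higher at 24 hr, and the median of the list lay between -0.35 and -0.06. The shares called at the 4 times were 33.3, 38.9, 33.3, and 22.2%, beside 17.5, 23.8, 19, and 20.2% of all probe sets, and late against early 6 were higher and 5 lower. Srxn1, which reduces oxidized peroxiredoxins, rose by 3.28 ± 0.42 at 2 hr and 1.87 at 4 hr. Hmox1, the heme oxygenase, rose by 1.94, 2.17, and 1.34 ± 0.19 at 2, 4, and 12 hr and stood at -0.11 at 24 hr. Nqo1, a quinone reductase, was lower at all 4 times (-1.62, -1.70, and -1.49 ± 0.21 at 2, 4, and 24 hr), Gclm, a subunit of the glutathione synthesis enzyme, was lower at 2, 4, and 12 hr (-1.58, -1.52, and -0.78 ± 0.18), and Slc7a11, a cystine transporter, was lower at 12 and 24 hr (-1.26 and -1.90 ± 0.28).

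Crystallin genes, many of which large Maf proteins are known to act on, did not move one way. Of 14 measured, none was called at 2 or 4 hr, 1 was lower at 12 hr (Crygs, -1.76 ± 0.42), and at 24 hr 1 was higher (Crygn, 1.58 ± 0.29) and 1 lower (Crygd, -0.72 ± 0.15). Thus 2 of 14 were called at 24 hr, when all 3 Maf probe sets were higher, against 20.2% of all probe sets. Several crystallins had wide standard errors, such as 0.42 for Crygs, 0.67 for Cryba2, and 0.86 for Cryga, beside 0.093 to 0.20 for the members. Some large differences were not called, such as Crygs at 2 hr (1.39, adjusted p = 0.054), Cryba2 at 12 hr (-1.85), and Cryga at 24 hr (-1.70). An uncalled crystallin gene therefore cannot be taken as unchanged. Late against early, 3 of 14 were higher, among them Crybb1 (1.07 ± 0.27) and Crygn (0.95 ± 0.20), and 3 lower, among them Crygs (-2.69 ± 0.30), which is 42.9% of the list against 39.2% of all probe sets. Because the γ-crystallin genes Cryga to Crygf are closely similar copies, their probe sets may not tell them apart. The sum of the lens fiber markers was 8989 to 9656 at 12 hr, also lower than at 0 hr, and lay at 11407 to 13124 at 24 hr; Mip, Bfsp1, Bfsp2, and Gja3 of the 5 measured were called lower at 4 hr and at 12 hr, and none of the 5 at 24 hr. Of the 4 endothelial markers measured, Tek was lower at 12 and 24 hr (-1.63 and -1.57 ± 0.18), Tie1 was lower at 24 hr, Pecam1 was lower at 4 hr, and Kdr was higher at 12 hr, and their sum was 753 to 804 at 24 hr against 1108 to 1450 at 0 hr. The part of the fiber and endothelial markers in the rise of Maf was not tested.

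Of the 14 regulators of lens development listed beside Maf, 1 was higher and 3 lower at 2 hr, 1 higher and 5 lower at 4 hr, 4 higher and 3 lower at 12 hr, and 2 higher and 6 lower at 24 hr. The shares called were 28.6, 42.9, 50, and 57.1%, beside 17.5, 23.8, 19, and 20.2% of all probe sets. Late against early 6 were higher and none lower, 42.9% against 39.2%. Gata3, a zinc finger factor needed for fiber cells to leave the cell cycle, was higher at 12 and 24 hr (1.28 and 1.35 ± 0.20). Pitx3, a homeobox factor, was lower at 2 and 4 hr (-1.05 and -1.06 ± 0.14) and not called late (0.20 and 0.19). Meis2 was lower at 4, 12, and 24 hr (-1.52, -0.53, and -0.55 ± 0.14). Its fall at 4 hr was the largest of the list against 0 hr, each gene by its brightest probe set. Foxe3, a factor of the lens epithelium, was lower at 24 hr (-1.18 ± 0.18), and Mab21l1 was lower at all 4 times (-0.55, -1.06, -0.75, and -0.93 ± 0.091).

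**Figure D4:**
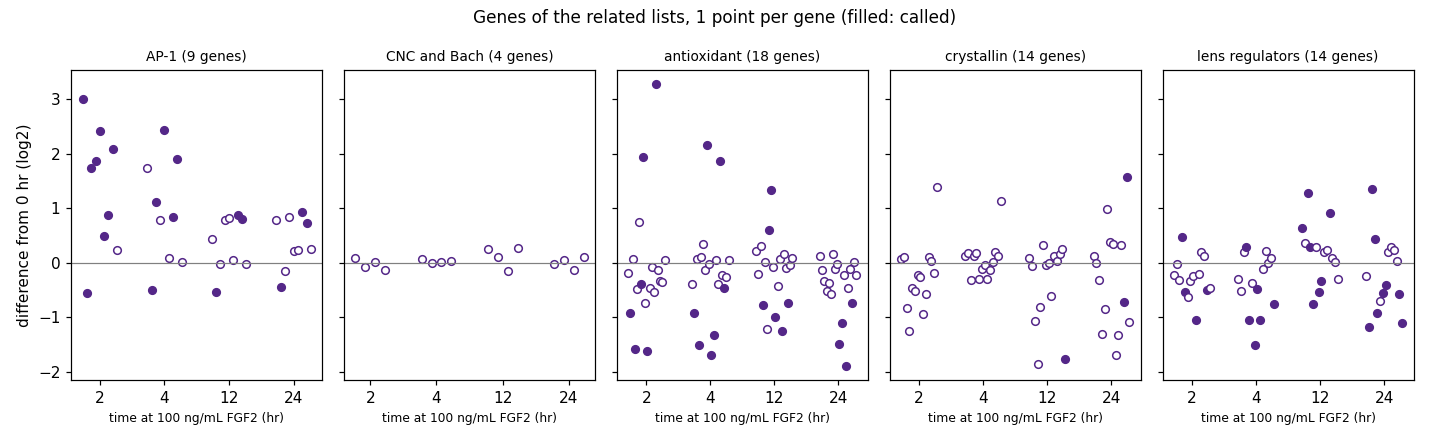
Difference from 0 hr on the log2 scale (vertical axis) at 2, 4, 12, and 24 hr (horizontal axis) for the genes of 5 lists, 1 panel per list and 1 point per gene, in alphabetical order within a time; filled points have an adjusted p under 0.05. The AP-1 points reach 3.01 at 2 hr, and no CNC or Bach gene is filled.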

How the data were processed

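Gene expression was measured on 10 Affymetrix rat arrays, 2 per time point. The deposited values are intensities on a linear scale, which the authors normalized by RMA per the submitters' processing notes (version not given in the sources used here), from cDNA amplified from 50 ng of total RNA. These intensities were log2-transformed without renormalizing, and 57 array control probe sets were left out. Probe sets were named by the platform annotation, and sequences and gene positions came from RefSeq (GRCr8). The means of the 5 time points were fitted to all 10 arrays by lmFit and eBayes of limma 3.58.1 under R 4.3.3, with 5 residual degrees of freedom, and p was adjusted by Benjamini-Hochberg over 31042 probe sets. The neighbours in the order of levels were tested in the same way over all pairs of time points, a choice made after seeing the data. The steps were tested on simulated data. Plots were made in matplotlib 3.10.9 under Python 3.11.15.

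The members and lists were chosen with earlier results of these data known. By rule, every member probe set was named, with the called list genes that moved most, Mafa, the CNC and Bach genes, and genes among the 5 most like each probe set. The alternatives tried were the methods' analysis of variance, p without adjustment, a fit of only the groups compared, quantile normalization, a trended and robust prior, a fold minimum of 1.25, omission of the dimmest 1 in 3 probe sets, centring on the median, the Actb ratio as a covariate, array quality weights, a replicate block, and the omission of each array, after which a time point with 1 array is assumed to vary like the others. Replicate numbers were checked for pairing by correlating deviations from the group means (limit 0.1). The miRNA assays were not analysed here.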

Additional observations from a re-analysis of the deposited data

Results flagged for a closer look

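All 7 probe sets differed between the late and the early phase, by a limma test of the difference itself, in a comparison in which 39.2% of all probe sets did. The late minus early differences, on the log2 scale, were 2.17, 0.63, and 1.61 for Maf (1368388_at, 1385243_at, and 1387165_at), 0.21 and 0.39 for Mafg (1368874_a_at and 1372024_at), -0.99 for Maff (1380229_at), and -0.82 for Mafk (1372211_at). The sign differed between Maf and Mafg on one side and Maff and Mafk on the other. Phase and the run of numbers in the array names cannot be told apart in these differences.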

How the results depend on the processing

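Over 49 values (7 probe sets in 7 comparisons), 21 alternative settings gave 1029 values, of which 936 kept their direction and their side of the threshold, 46 lost a call, 33 gained one, and 14 changed sign. Settings that alter only the test, such as p without adjustment or the fold minimum, leave the difference itself as it is. The same holds for leaving out an array outside the comparison, so in these cases the direction could not change. The 14 sign changes are all of values that were not called. With single arrays left out, the ranges that crossed 0 were -0.071 to 0.14 for Mafg 1368874_a_at at 4 hr, -0.061 to 0.087 for Mafk at 12 hr, -0.13 to 0.061 for Mafk at 24 hr, -0.38 to 0.11 for Maf 1368388_at, -0.16 to 0.25 for Maf 1385243_at, and -0.15 to 0.075 for Maf 1387165_at for 4 against 2 hr, and -0.14 to 0.047 for Mafk for 24 against 12 hr. With the Actb ratio as a covariate they were Mafg 1372024_at at 2 hr (-0.13), Mafk at 12 hr (-0.060), Maf 1385243_at for 4 against 2 hr (-0.015), and Maff for 24 against 12 hr (-0.086), and with quantile normalization Mafk at 24 hr (0.0056). The number of the 7 probe sets called at 12 hr was 2, but 4 with unadjusted p, 5 with the methods' analysis of variance, 4 in a fit of only the groups compared, and 4 with array quality weights. For 4 against 2 hr it was 1, but 0 with the analysis of variance, the groups alone, or array quality weights, and for 24 against 12 hr it was 0, but 3 with unadjusted p, the analysis of variance, or array quality weights. With each array left out in turn, 3 to 4 probe sets were called at 2 hr, 3 to 4 at 4 hr, 2 to 3 at 12 hr, 2 to 6 at 24 hr (2 without replicate 2 of 0 hr, 3 without replicate 2 of 24 hr), 0 to 1 for 4 against 2 hr, 0 to 1 for 24 against 12 hr (1 without either 4 hr array), and 6 to 7 for late against early. Only 2 and 4 hr showed deviations that went together by replicate number (r = 0.33), so the numbers were not used to pair arrays, and with a replicate block the counts were 3, 4, 2, 6, 1, 0, and 7, the same as without it. Where a call was lost the cause was not tested. With 2 arrays per time point, small differences could not be resolved.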
